A study of Rattus norvegicus with 24 samples.

Results

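Transcript ratios of 5 enzymes that activate or oxidise fatty acids were examined in rat kidney under high salt (HS) and low salt (LS): Acsl1, Acadl, Acads, Hsd17b4 and Amacr. They were chosen by gene symbol with earlier results of these data known, so shares of the 5 set beside all probes are descriptions alone. They are 5 of the 1561 probes that held a value on at least 1 of the 24 two-colour cDNA arrays. Each gene is listed at 2 probe IDs, and values stood at 1 of them. The groups compared were strain 13 on HS, strain 13 on LS, SS on HS and SS on LS, each after 2 weeks. SS is the salt-sensitive rat, and strain 13 is, from what is known of the study, the SS rat with its chromosome 13 replaced by that of a salt-insensitive strain, so that both strains share the rest of the SS genome. The labels name kidney and the series title the renal medulla. They give no age, no sex and no statement on whether RNAs were pooled.

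Fatty acids are a main fuel of kidney tubule cells. A fatty acid is first joined to coenzyme A by an acyl-CoA synthetase. It is then shortened by repeated cycles of beta oxidation, which run in mitochondria for most chain lengths and in peroxisomes for very long and branched chains. Each cycle opens with a dehydrogenation that in mitochondria is carried out by chain-length-specific acyl-CoA dehydrogenases. Both organelles are abundant in the proximal tubule.

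Each of the 4 comparisons had 3 replicates, and each replicate was hybridised on a forward and a dye-swap array. All values are the deposited log ratios between an array's channels. Their base is not stated, so no fold is given. A ratio carries no absolute level, so the tissue could not be checked against its defining markers. Signs are read as HS over LS and as 13 over SS, which is likely from the channels that some titles name. If that reading is wrong, all signs turn together. Of the 6 SS diet arrays, 5 name no strain in their titles and were taken as SS because the titles of the strain 13 diet arrays name theirs. The last of the 6 has conflicting labels: its title begins as for strain 13, but its channels are named as SS. Acsl1, Acadl and Acads held a value on all 24 arrays, and Hsd17b4 and Amacr on 23. They lacked one on the LS strain array with the fewest values (726, against up to 1402 elsewhere). The genes lie on chromosomes 16, 9, 12, 18 and 2 (GRCr8), in the order in which they are named above, and thus none lies on the substituted chromosome 13. The labels do not say that replicates are separate animals, so the p-values reflect the spread among these RNA samples alone, which could be technical.

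**Figure D1:**
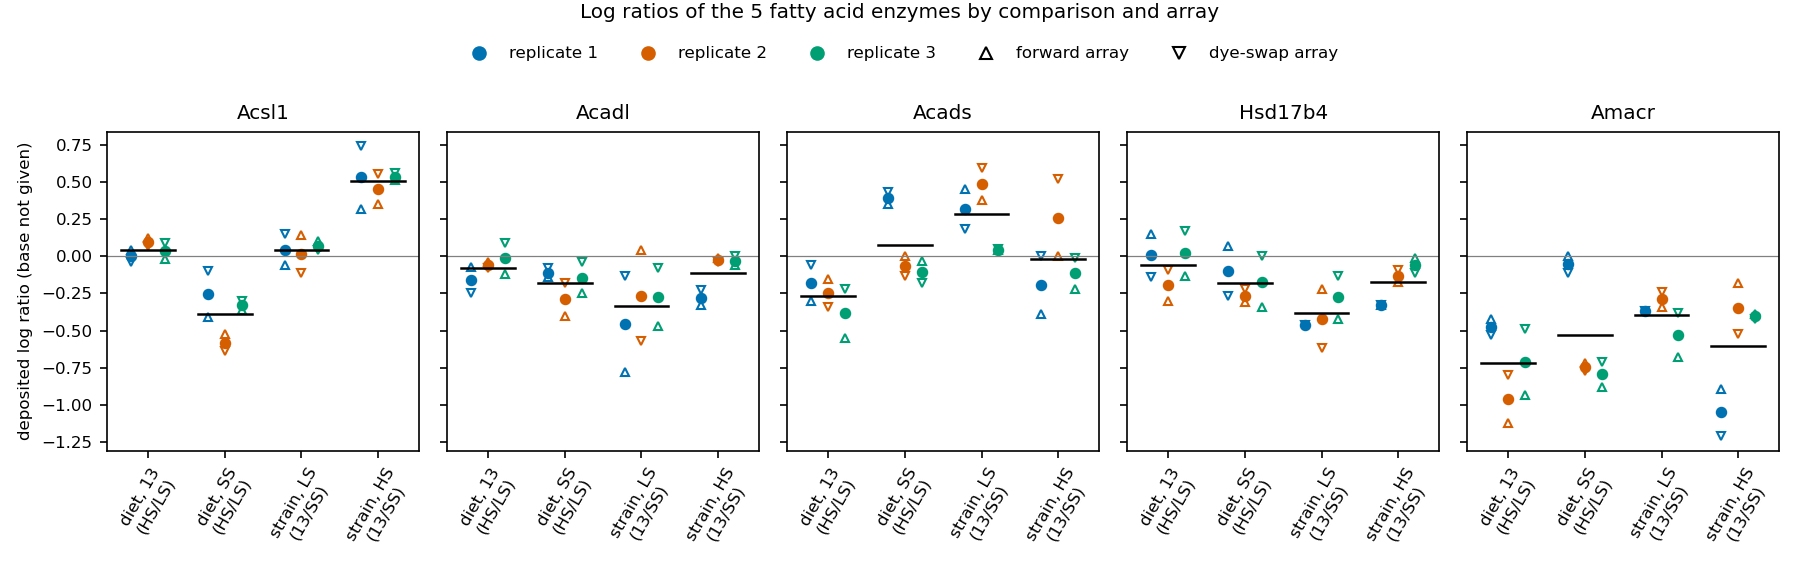
Deposited log ratio (vertical axis, base not given) of each enzyme in the 4 comparisons. Open triangles are single arrays, filled circles the mean of the forward and dye-swap array of a replicate, and bars the mean of 3 replicates. Acsl1 lies near 0 in 2 comparisons and on opposite sides of 0 in the SS diet and HS strain comparisons, while every Amacr replicate lies below 0.

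Acsl1 encodes a long-chain acyl-CoA synthetase, the activating enzyme that precedes both oxidation and storage. Acsl1 was lower on HS than on LS in SS rats, and higher in strain 13 than in SS on HS. Both comparisons include SS on HS and may hold the same RNA, so these results may not be independent. In strain 13 the diet ratios were 0, 0.095 and 0.035 in replicates 1 to 3, a mean of 0.04 ± 0.05 (SD, n = 3) with a 95% interval of -0.10 to 0.19. In SS they were -0.255, -0.58 and -0.33, a mean of -0.39 ± 0.17, and all 6 arrays lay below 0 (limma adjusted p = 0.0105). The strain ratios on HS were 0.53, 0.45 and 0.535, a mean of 0.505 ± 0.05, and all 6 arrays lay above 0 (limma adjusted p = 0.00636). On LS they were 0.045, 0.015 and 0.07, a mean of 0.04 ± 0.03. Acsl1 thus stood near 0 for diet in strain 13 and for strain on LS, where single arrays straddled 0 and ran from -0.04 to 0.12 and from -0.11 to 0.15. In bulk tissue, fewer cells of a type and less RNA per cell cannot be told apart.

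Single Acsl1 arrays in the strain comparison ran from 0.32 to 0.74 on HS, and did not overlap those on LS, as was the case for 0.936% of 641 probes with all 12 arrays. Those of the diet comparison ran from -0.04 to 0.12 in strain 13 and from -0.64 to -0.10 in SS, again without overlap (1.26% of 712 probes). Of the 5 enzymes Acsl1 alone showed this, in both, although Hsd17b4 and Amacr lacked an LS array and could not be counted in the first. The fall in SS was smallest in replicate 1. The mean of 6 stroma and smooth muscle markers in the same SS diet replicates was 0.19, 0.63 and 0.65, and that of 5 thick ascending limb and distal tubule markers -0.196, -0.184 and -0.16. On HS the strain ratios of the same lists were -0.07, -0.48 and -0.29 for stroma and 0.234, 0.209 and 0.154 for the limb and distal tubule. Their part in the Acsl1 ratios was not tested.

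For the region around an annotated start of Acsl1, the RefSeq sequence of GRCr8 is shown because this gene had the clearest change among the 5, beside those of Hsd17b4 and Amacr, the peroxisomal members. RefSeq promoter sequences were matched for 4 of the 5 genes. Each covers a transcript start and lies mostly upstream of it, at chr16:52532343-52532642 (minus strand), chr18:45515177-45515476 (plus strand) and chr2:61673085-61673384 (plus strand). The Acsl1 window lies inside the gene, which spans bases 52487870 to 52554110, at the start of 1 of its transcripts. Capitals mark AGGTCA on either strand, the core motif read by many nuclear receptors, including the peroxisome proliferator-activated receptors that control fatty acid oxidation.
Acsl1: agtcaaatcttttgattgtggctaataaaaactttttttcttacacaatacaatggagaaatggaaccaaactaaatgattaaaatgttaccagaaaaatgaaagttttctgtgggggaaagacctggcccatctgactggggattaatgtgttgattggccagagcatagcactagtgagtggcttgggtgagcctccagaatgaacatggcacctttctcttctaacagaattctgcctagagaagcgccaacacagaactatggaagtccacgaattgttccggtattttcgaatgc
Hsd17b4: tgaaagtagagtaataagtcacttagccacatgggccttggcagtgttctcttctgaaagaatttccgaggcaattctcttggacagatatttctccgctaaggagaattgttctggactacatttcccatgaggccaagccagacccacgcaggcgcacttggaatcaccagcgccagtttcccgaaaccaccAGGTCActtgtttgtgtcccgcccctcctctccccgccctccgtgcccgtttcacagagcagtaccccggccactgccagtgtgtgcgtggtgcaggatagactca
Amacr: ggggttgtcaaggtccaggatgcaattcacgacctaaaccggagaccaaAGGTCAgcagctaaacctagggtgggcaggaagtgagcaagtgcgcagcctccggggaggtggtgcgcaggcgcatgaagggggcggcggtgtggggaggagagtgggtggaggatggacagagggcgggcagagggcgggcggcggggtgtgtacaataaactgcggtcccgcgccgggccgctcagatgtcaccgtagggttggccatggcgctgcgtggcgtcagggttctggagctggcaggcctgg
The Hsd17b4 window held 1 such motif, opening at base -56 relative to the start, and that of Amacr 1, at -201. Those of Acsl1 and Acads held 0. Of 33469 rat promoter windows of the same length, 16.2% held at least 1. The direct repeat of this motif with 1 base between, the form that those receptors read as dimers, was in none of the 4 windows and in 0.0538% of all. These matches describe the letters only.

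Acadl and Acads encode the mitochondrial long-chain and short-chain acyl-CoA dehydrogenases. The pair did not run together. Acadl lay below 0 in every replicate of every comparison, and on 21 of 24 arrays. In the strain comparison on HS its ratios were -0.28, -0.025 and -0.03, so that replicate 1 alone stood away from 0. Its largest ratios were in the strain comparison on LS, with -0.455, -0.265 and -0.275, a mean of -0.33 ± 0.11. That did not pass the test (limma adjusted p = 0.0904, 95% interval -0.49 to -0.17). Its single arrays there ran from -0.78 to 0.04, and the forward array minus the dye swap was -0.65, 0.61 and -0.39 in the replicates, so the orientations differed by more than the mean. The -0.78 came from the LS strain array with the fewest values, and without that array the mean was -0.22 (limma adjusted p = 0.126). In the diet comparisons Acadl had -0.16, -0.06 and -0.015 in strain 13, and -0.11, -0.29 and -0.145 in SS (mean -0.18, limma adjusted p = 0.212).

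Acads was lower on HS in all 6 arrays of strain 13, with replicate ratios of -0.18, -0.245 and -0.385, a mean of -0.27 ± 0.10. This did not pass the test (limma adjusted p = 0.508, 95% interval -0.53 to -0.01). In SS the same diet change was 0.39 in replicate 1 and -0.065 and -0.105 in the others, so these replicates lay on both sides of 0. The strain comparison on HS gave -0.195, 0.26 and -0.115, a mean of -0.02 ± 0.24. On LS it gave 0.315, 0.485 and 0.045, with all 6 arrays above 0 and a mean of 0.28 ± 0.22 (limma adjusted p = 0.187). Acads was therefore the one enzyme of the 5 with no call in any comparison, averages included, and the one with replicates on both sides of 0 in both comparisons that hold the SS RNA on HS.

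Hsd17b4 encodes the peroxisomal D-bifunctional protein, which hydrates and dehydrogenates the enoyl-CoA of very long and branched chains. In the strain comparison on HS its ratios were -0.33, -0.13 and -0.06, below 0 on all 6 arrays, with a mean of -0.17 ± 0.14 (limma adjusted p = 0.189). They were most negative in the strain comparison on LS, where the replicates had -0.46, -0.42 and -0.275. All 5 arrays with a value lay below 0, with a mean of -0.385 ± 0.10 (limma adjusted p = 0.0904), the second lowest unadjusted p (0.000255) of 1229 probes tested. Replicate 1 rested on the dye-swap array alone. The diet ratios were 0.005, -0.195 and 0.02 in strain 13, which straddled 0, and -0.10, -0.265 and -0.17 in SS. The SS mean of -0.18 ± 0.08 did not pass (limma adjusted p = 0.224).

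Amacr encodes alpha-methylacyl-CoA racemase, which turns branched-chain acyl-CoAs into the form that peroxisomal and mitochondrial oxidation accept. It had the most negative mean ratio of the 5 enzymes in each of the 4 comparisons, and no array above 0 (22 of 23 below, 1 at 0). In strain 13 the diet ratios were -0.475, -0.96 and -0.71, a mean of -0.715 ± 0.24. Its unadjusted p of 0.000817 was the second lowest of 1287 probes, yet it did not pass the adjustment (limma adjusted p = 0.324). In SS the diet ratios were -0.055, -0.745 and -0.795, so replicates 2 and 3 were close to those of strain 13 and replicate 1 was near 0 (mean -0.53 ± 0.41, limma adjusted p = 0.0952). In the strain comparison they were -1.05, -0.35 and -0.405 on HS, where Amacr passed as lower in strain 13 (mean -0.60 ± 0.39, limma adjusted p = 0.0487). On LS they were -0.37, -0.29 and -0.53, within a narrower range (mean -0.40 ± 0.12, limma adjusted p = 0.174). The call on HS was lost under 9 of 12 alternatives, among them the replicate number as a block (-0.60, adjusted p = 0.0925), forward arrays alone (-0.49, adjusted p = 0.0952) and equal spread (-0.51, adjusted p = 0.103). Without replicate 1 the mean was -0.38 (adjusted p = 0.348), without replicate 2 it was -0.73 (adjusted p = 0.0724) and without replicate 3 -0.70 (adjusted p = 0.0934).

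Counted per comparison, 1 of the 5 enzymes passed in the SS diet comparison and fell (2.82% of 1310 probes passed, 0.992% as lower). In the strain comparison on HS 2 passed, 1 as higher and 1 as lower in strain 13 (6.00% of 1350 probes passed, 3.63% as higher and 2.37% as lower; 10 higher and 3 lower with arrays scaled to equal spread). In the strain 13 diet comparison 0 of the 5 passed, as did 0% of 1287 probes, and 2 of the 5 had an unadjusted p below 0.05, against 9.25% of all. On LS 0 of the 5 passed, as did 0% of 1229, and 4 of the 5 were below an unadjusted p of 0.05, against 21.8% of all. Both counts of 0 over all probes are from limma; other settings called up to 15 probes in strain 13 and up to 70 on LS. In the SS diet comparison the Acsl1 call was lost without replicate 2 (-0.29, adjusted p = 0.132) or replicate 3 (-0.42, adjusted p = 0.0802) and on dye-swap arrays alone (-0.35, adjusted p = 0.0713), and on HS without replicate 1 (0.49, adjusted p = 0.0715). In SS, Amacr passed without replicate 1 (-0.77, adjusted p = 0.0349) and on dye-swap arrays alone (-0.53, adjusted p = 0.0445).

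By sign alone, all 3 replicates lay below 0 for 3 enzymes in the strain 13 diet comparison (15.8% of probes), for 4 in SS (19.5%) and for 3 in the strain comparison on LS (17.6%). Between strains on HS they lay below 0 for 3 enzymes (250 of 1252 probes) and above 0 for Acsl1 (28.3%), and on LS above 0 for Acsl1 and Acads (26.5%). Acadl and Amacr were below 0 in all 12 values of the 4 comparisons, which share RNAs, as were 0.696% of 1006 probes.

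The 4 comparisons close a square, so each enzyme can be placed in all conditions relative to SS on LS. Acsl1 stood at 0.10 ± 0.10 for strain 13 on HS, 0.05 ± 0.08 for strain 13 on LS and -0.40 ± 0.11 for SS on HS (SD, n = 3, combined by replicate number). The numbers were not shown to pair the comparisons, so each SD here depends on that matching and describes spread only. Both conditions of strain 13 lay within about 1 SD of SS on LS, and SS on HS lay below all of them. Amacr stood at -1.12 ± 0.13 for strain 13 on HS, -0.40 ± 0.14 for strain 13 on LS and -0.53 ± 0.46 for SS on HS. Its order was strain 13 on HS lowest and SS on LS highest, with the middle pair within their spread of each other. Acadl and Hsd17b4 shared an order: Acadl had -0.35 ± 0.14 for strain 13 on HS, -0.30 ± 0.08 for strain 13 on LS and -0.21 ± 0.07 for SS on HS. Hsd17b4 had -0.40 ± 0.14, -0.36 ± 0.09 and -0.20 ± 0.11 in the same conditions. For both, the 2 diets of strain 13 did not differ beyond their spread. Acads had 0.03 ± 0.27, 0.29 ± 0.20 and 0.06 ± 0.27, with only strain 13 on LS away from SS on LS by more than its spread.

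The same sums can be reached by 2 routes, through strain 13 on LS or through SS on HS. For Amacr the routes from SS on LS to strain 13 on HS gave -1.11 and -1.13, and for Acsl1 0.09 and 0.12. The gap between the routes was -0.03 for Acsl1, -0.12 for Acadl, -0.045 for Acads, -0.09 for Hsd17b4 and 0.02 for Amacr. The median absolute gap over 1164 probes was 0.0933, so all but Acadl were at or below it.

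**Figure D2:**
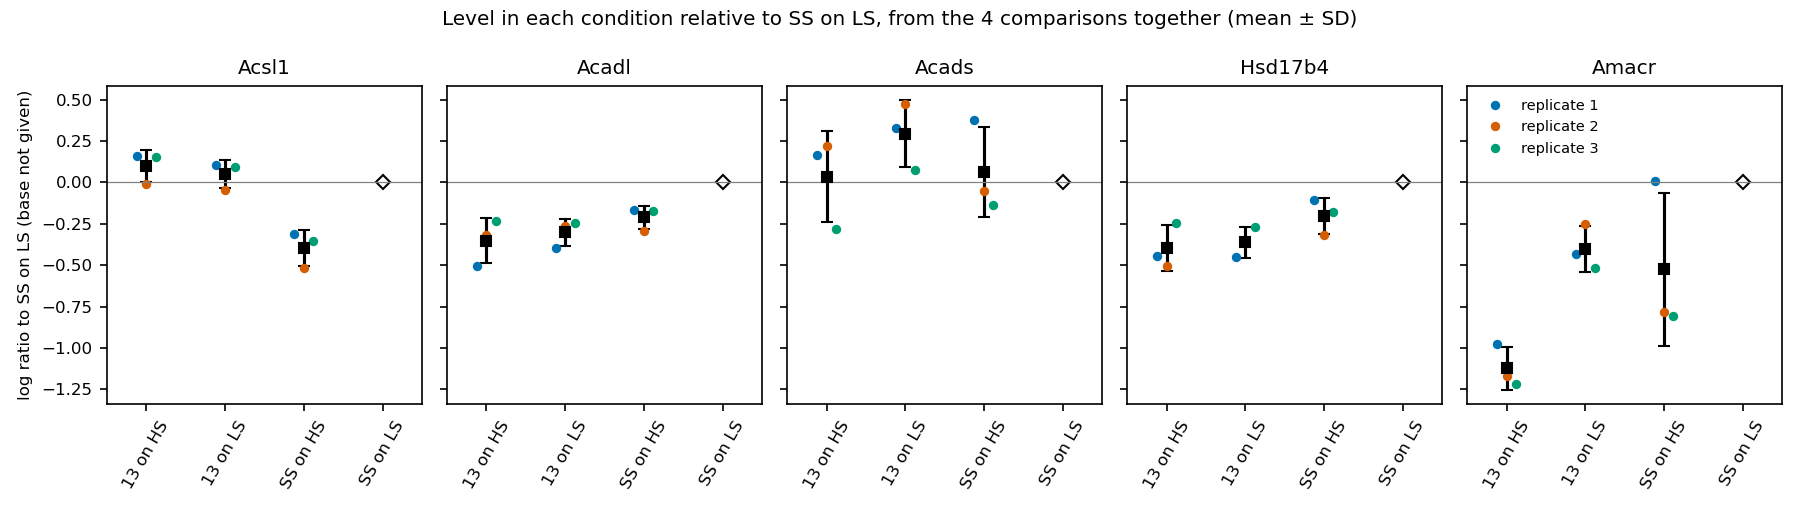
Log ratio of each enzyme to SS on LS (vertical axis, base not given) in strain 13 on HS, strain 13 on LS and SS on HS, from the 4 comparisons solved together. Squares with bars are the mean ± SD of 3 replicates, coloured circles the replicates, and the open diamond marks SS on LS at 0. SS on HS is the low condition for Acsl1 (-0.40), and strain 13 on HS for Amacr (-1.12).

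Both averages below join comparisons that share no RNA by their labels, and were chosen after the values were seen. The strain difference averaged over both diets passed for 4 of the 5 enzymes, against 15.0% of 1203 probes (105 higher and 76 lower, or 8.73% and 6.32%, and 81 higher and 93 lower with arrays centred on their median). Acsl1 was higher in strain 13 (0.27, 95% interval 0.17 to 0.38, limma adjusted p = 0.00662). Lower in strain 13 were Amacr (-0.50, interval -0.75 to -0.25, adjusted p = 0.0161), Hsd17b4 (-0.28, interval -0.39 to -0.16, adjusted p = 0.0080) and Acadl (-0.22, interval -0.33 to -0.11, adjusted p = 0.0180). Acads had 0.13 (interval -0.05 to 0.31, adjusted p = 0.283). Without the LS strain array with the fewest values Acadl shrank to -0.1675 (limma adjusted p = 0.0461). For Hsd17b4 and Acadl the call was lost without any 1 of the 3 replicates (adjusted p from 0.0654 to 0.108), for Hsd17b4 also on forward arrays alone (-0.245, adjusted p = 0.0752) and for Acadl on dye-swap arrays alone (-0.175, adjusted p = 0.0911), for Amacr without replicate 2 (adjusted p = 0.0533) or 3 (0.105), and for Acsl1 without replicate 3 (0.105). For Acsl1 the average stands for ratios of 0.505 on HS and 0.04 on LS, and for Acadl, Hsd17b4 and Amacr for ratios below 0 in each replicate on both diets.

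The diet change averaged over both strains passed for Amacr alone (-0.62, 95% interval -0.87 to -0.38, limma adjusted p = 0.0205), against 2.96% of 1249 probes (0.801% as lower). It was lost without replicate 2 (-0.51, adjusted p = 0.381) or replicate 3 (-0.56, adjusted p = 0.285). The other 4 enzymes had averages between -0.17 and -0.10, all below 0.

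The difference of the diet change between the strains addresses whether salt acted on an enzyme in one strain more than in the other. It passed for Acsl1, 1 of the 5, against 0.430% of 1164 probes (0.258% as higher), with 0.37, 0.555 and 0.415 in replicates 1 to 3. The mean was 0.45 (95% interval 0.30 to 0.59, limma adjusted p = 0.0353), with the lowest unadjusted p of those 1164 probes. The diet arrays alone gave 0.43 and the strain arrays alone 0.46, and neither estimate passed by itself (adjusted p = 0.308 and 0.278). SS RNA of the same name is on both kinds of array in replicate 3. Between SS diet and strain on HS, deviations from the group means correlated at -0.62, -0.48 and -0.26 in replicates 1 to 3. That is the sign that shared SS RNA on HS would give, so sharing may extend beyond replicate 3. The fit treats the estimates as independent, so the p of the difference may be too low. With equal spread the difference was 0.42 (adjusted p = 0.0649), without replicate 2 it was 0.39 (adjusted p = 0.22) and without replicate 3 it was 0.46 (adjusted p = 0.299). With the replicate number as a block Acsl1 passed (adjusted p = 0.0317), with 8 of all probes against 5. The titles of all replicate 3 strain arrays carry the same string, possibly a batch, and within it Acsl1 had 0.535 on HS and 0.07 on LS.

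For the other 4 enzymes the difference did not pass. Hsd17b4 (0.17, 95% interval 0.004 to 0.33) and Acadl (0.16, interval 0.002 to 0.32) lay on the same side as Acsl1. Acads lay on the opposite side at -0.32 (interval -0.58 to -0.06, limma adjusted p = 0.216), with -0.54, -0.20 and -0.22 in the replicates. For Amacr the difference was -0.19 with an interval of -0.54 to 0.15, and its replicates of -0.55, -0.1375 and 0.105 straddled 0. Within replicate 3 the strain-array difference was 0.245 for Acadl, 0.215 for Hsd17b4, -0.16 for Acads and 0.125 for Amacr, the last opposite in sign to its whole.

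**Figure D3:**
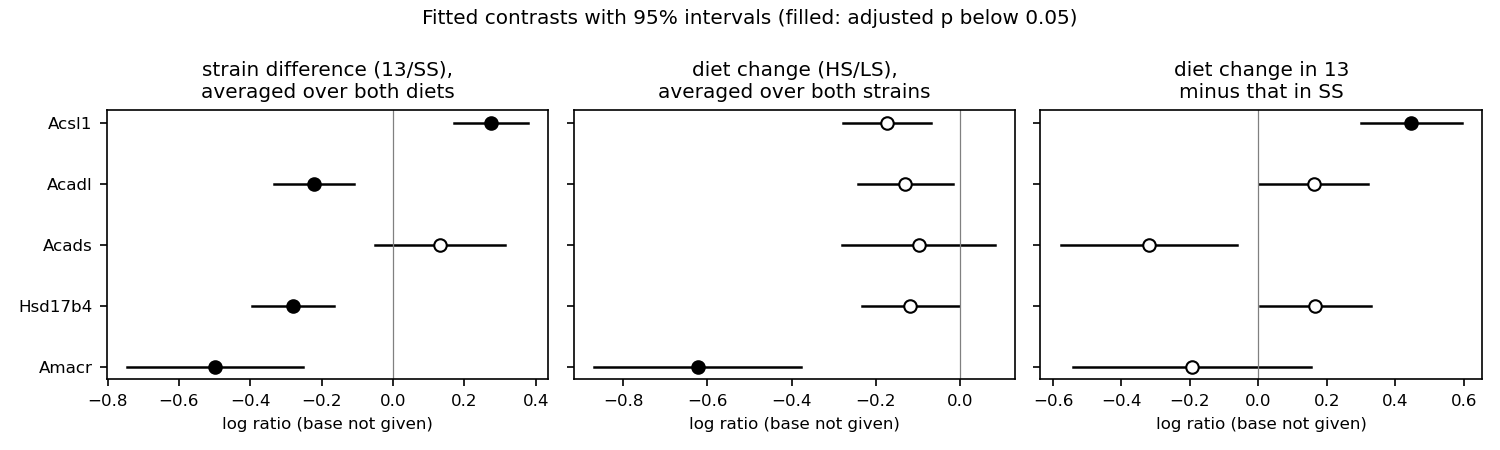
Fitted log ratios of the 5 enzymes (horizontal axes, base not given) with 95% intervals for the strain difference averaged over both diets, the diet change averaged over both strains, and the diet change in strain 13 minus that in SS. Filled points had an adjusted p below 0.05: 4 enzymes for strain, Amacr alone for diet, and Acsl1 alone for the difference.

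Over the 12 RNA pairs, which share RNAs and arrays' dyes, the 5 enzymes fell into pairs and a single. Acadl and Hsd17b4 had a Pearson r of 0.84, Acads and Amacr 0.77, and Acsl1 had r between -0.09 and 0.24 with the other 4. The median over all pairs of 862 named probes with a value in every RNA pair was near 0 (-0.0015). Acads and Hsd17b4 ran the opposite way (r = -0.52). Thus the mitochondrial dehydrogenases were not paired with each other, nor the peroxisomal enzymes.

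The probes most like Acsl1 over the 12 pairs were Pcsk6 (r = 0.95), a proprotein convertase, Egf (0.93), a growth factor of the distal tubule, and Gcgr (0.92), the glucagon receptor. Each was below 0 in the SS diet comparison (-0.305, -0.31 and -0.43) and above 0 in the strain comparison on HS (0.44, 0.29 and 0.52), as Acsl1 was. Most like Acadl were Psma4 (0.91), a proteasome subunit, Hibadh (0.84), an enzyme of valine breakdown, and Cycs (0.84), cytochrome c. Most like Hsd17b4 were Cycs (0.87), Acadl (0.84) and Car2 (0.83), a carbonic anhydrase. Cycs had -0.44 in the strain comparison on LS. Most like Acads were Pik3r2 (0.97), a regulatory subunit of phosphoinositide kinase, Glul (0.93), glutamine synthetase, and Gpx4 (0.93), a lipid hydroperoxide reductase. Most like Amacr were Sod1 (0.90), a superoxide dismutase, Gamt (0.90), which makes creatine, and Hpd (0.89), of tyrosine breakdown. Hpd had ratios from -0.335 to -0.28 in all 4 comparisons.

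Of the wider pathway, 162 other genes of fatty acid uptake, oxidation, ketone bodies, regulation and synthesis were listed, and 54 had a value. In the strain 13 diet comparison 8 of 14 genes of mitochondrial beta oxidation lay below 0 (median -0.02), with 0 past the limma test. Of these 14, 0 had an unadjusted limma p below 0.05, against 119 of 1287 probes. In SS 12 of 14 lay below 0 (median -0.14), against 677 of 1310 probes (median -0.01), with 0 past the test. There 3 had an unadjusted limma p below 0.05, against 255 of 1310 probes. The difference between 8 of 14 and 12 of 14 below 0 was not tested. Other lists also lay mostly below 0 in SS: the peroxisomal list with 6 of 8 (median -0.0975) and all lists together with 37 of 50 (median -0.12). Echs1, the enoyl-CoA hydratase that follows the dehydrogenases, had the lowest p of that list in SS, with -0.085, -0.30 and -0.435 (limma adjusted p = 0.0829). Strain 13 minus SS, the diet change was above 0 for 12 of 14 (median 0.14), and 579 of 1164 probes lay above 0. Acat1, a mitochondrial thiolase, had 0.25 (adjusted p = 0.0909) and Cpt1a, which admits fatty acids to mitochondria, 0.24 (adjusted p = 0.181). Cyp4b1, a cytochrome P450 of the omega oxidation list, had 0.41 (adjusted p = 0.083), with SS diet ratios of -0.39, -0.23 and -0.26. These lists were described by counts alone.

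In the strain comparison on HS, 1 of 50 listed genes passed, against 6.00% of all probes. It was Fabp3, a cytosolic fatty acid carrier, with 0.59, 0.37 and 0.225 (mean 0.395 ± 0.18, limma adjusted p = 0.0280). Cpt1b, the muscle form of the carnitine transferase, had 0.515, 0.535 and 0.35 (adjusted p = 0.0505). Decr1, an auxiliary enzyme for unsaturated chains, had -0.46, -0.33 and -0.10 on HS (adjusted p = 0.0600) and -0.34, -0.28 and -0.36 on LS (adjusted p = 0.0904). Nr2f6, an orphan nuclear receptor, had 0.46, 0.21 and 0.375 on LS (adjusted p = 0.0904). Crot, a peroxisomal carnitine transferase, had -0.36 and -0.60 on LS, with no value in replicate 3. Of the peroxisomal list 7 of 9 lay below 0 on HS (median -0.055) and 6 of 8 on LS (median -0.14), with 0 past the test. The medians over all probes were 0.02 and 0.025. At an unadjusted limma p below 0.05 there were 2 and 3 of the list, against 312 of 1350 and 268 of 1229 probes. The mitochondrial list had 4 of 14 below 0 on HS (median 0.04) and 11 of 15 on LS (median -0.06).

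Of the 49 listed genes tested for the strain difference averaged over both diets, 4 rose and 4 fell, a share near the 15.0% of all probes. Higher in strain 13 were Fabp3 (0.27), Nr2f6 (0.24), Cpt1b (0.31) and Acsl5, another acyl-CoA synthetase (0.16, limma adjusted p = 0.0492). Lower were Decr1 (-0.31), Acsm2, a medium-chain synthetase (-0.61), Slc27a2, a very-long-chain synthetase and transporter (-0.53), and Hao2, a peroxisomal hydroxyacid oxidase (-0.45). Nr2f6 also rose on HS in SS, with 0.25, 0.39 and 0.40 (limma adjusted p = 0.0390), the 1 of 50 listed genes that passed there, and it was the 1 of 48 that passed for the diet change averaged over both strains (0.25, adjusted p = 0.0339). Echs1 (-0.17, adjusted p = 0.110) and Slc27a2 (-0.385, adjusted p = 0.126) followed it there. In strain 13 the lowest p among listed genes belonged to Nr2f2, a related receptor, with 0.36, 0.58 and 0.29 (adjusted p = 0.417), Acsm2 (-0.49, adjusted p = 0.48) and Slc27a2 (-0.395, adjusted p = 0.568). Of the 10 uptake and activation genes tested in SS, 0 passed or reached an unadjusted limma p below 0.05, against 255 of 1310 probes at that p. The list's median was -0.045, beside -0.39 for Acsl1. The 7 fatty acid synthesis and storage genes tested on HS had a median of 0.065 and those 8 in SS -0.04, with 0 past the test. At an unadjusted limma p below 0.05 there were 0 and 1 of them, against 312 of 1350 and 255 of 1310 probes.

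**Figure D4:**
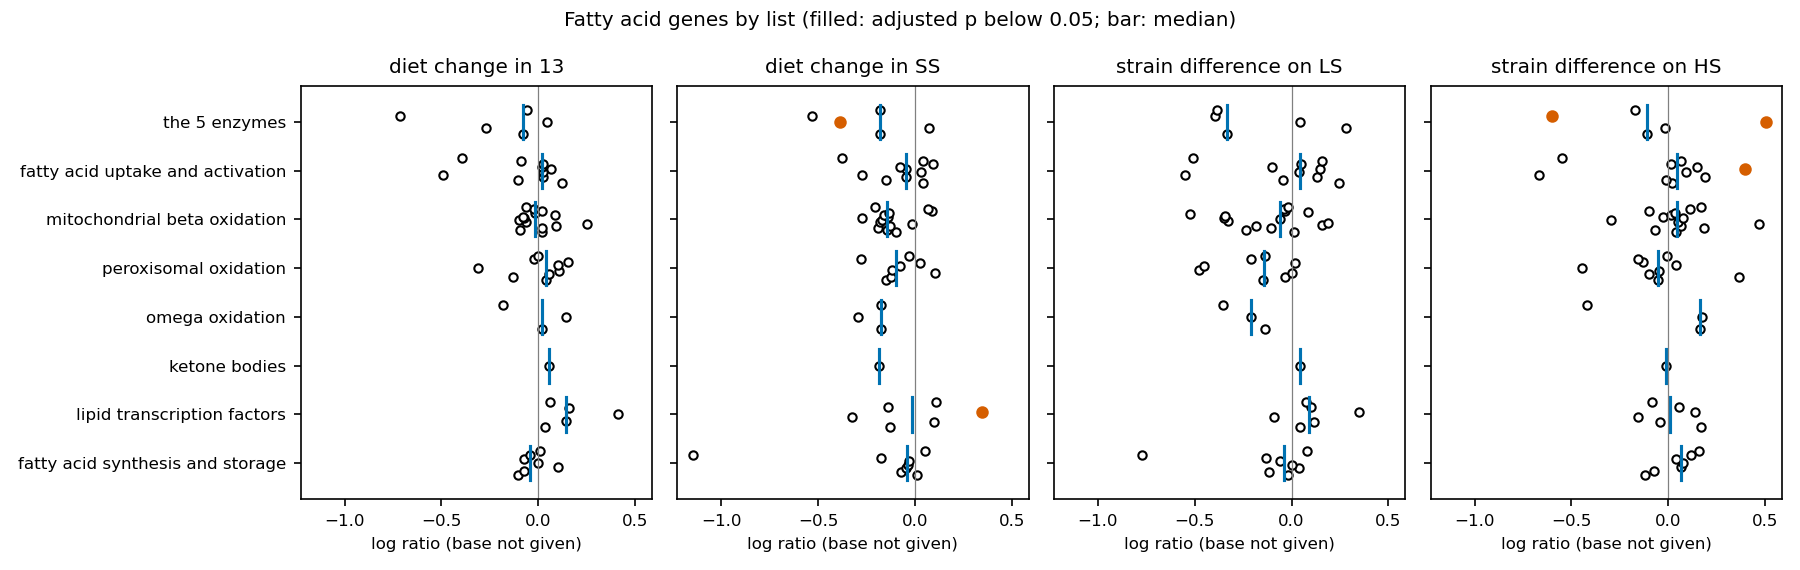
Log ratios (horizontal axes, base not given) of the 5 enzymes and of the other listed fatty acid genes in the 4 comparisons, 1 point per gene, with a bar at each list's median. Filled points had an adjusted p below 0.05. The mitochondrial list lies mostly left of 0 in the SS diet comparison (median -0.14) and around 0 in strain 13 (median -0.02).

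Markers of the proximal tubule were set beside the enzymes. In the strain comparison on HS 10 of 10 tested markers lay below 0 (median -0.43, 2 fell), on LS 11 of 11 (median -0.33, 0 passed), and in the diet comparisons 10 of 11 in strain 13 (median -0.35) and 9 of 11 in SS (median -0.17), with 0 passed in both. Of all 1350 probes tested on HS 2.37% passed as lower. The mean of the 10 markers with a value in all RNA pairs was 0.2285, -0.36 and -0.34 in the SS diet replicates, where Amacr had -0.055, -0.745 and -0.795. It was -0.80, -0.0975 and -0.45 in the strain replicates on HS, where Amacr had -1.05, -0.35 and -0.405. Over the 12 pairs its Pearson r was 0.75 with Amacr, 0.60 with Acads, 0.29 with Acadl, 0.26 with Hsd17b4 and -0.38 with Acsl1. In SS, Slc27a2 and Hao2 had the same order of replicates as Amacr, with 0.145, -0.605 and -0.665 and with 0.315, -0.28 and -0.395. In the strain comparison on LS the marker mean was -0.41, -0.13 and -0.48. There Acads had 0.315, 0.485 and 0.045, on the opposite side of 0, and Amacr -0.37, -0.29 and -0.53. The part of these markers in the Amacr and Acads ratios was not tested. Replicate 1 in SS had the one positive marker mean, and there Acads had its ratio of 0.39.

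Of the other marker lists, 3 of 5 collecting duct markers were higher in strain 13 on HS (median 0.35), as were 1 of 5 thick ascending limb and distal tubule markers (median 0.18) and the 1 endothelial marker measured, Kdr (0.315). Over all 1350 probes tested on HS 3.63% passed as higher and 2.37% as lower. Of the 3 leukocyte markers 1 fell, while 0 of 7 stroma and smooth muscle markers (median -0.20), 0 of 2 fat markers (0.11) and 0 of 4 blood markers (0.07) passed there. In SS, 3 of 6 stroma and smooth muscle markers rose on HS (median 0.46), against 24 of 1310 probes, and 0 of the other lists passed. At an unadjusted limma p below 0.05 there were 5 of 5 thick ascending limb and distal tubule markers (4 below 0, median -0.25). So were 4 of 6 stroma, 2 of 3 leukocyte, 1 of 11 proximal tubule and 0 of 5 collecting duct markers, against 255 of 1310 probes. The 2 fat markers, Fabp4 and Lipe, also belong to the fatty acid lists, and had SS diet medians of -0.055, against -0.39 for Acsl1.

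**Figure D5:**
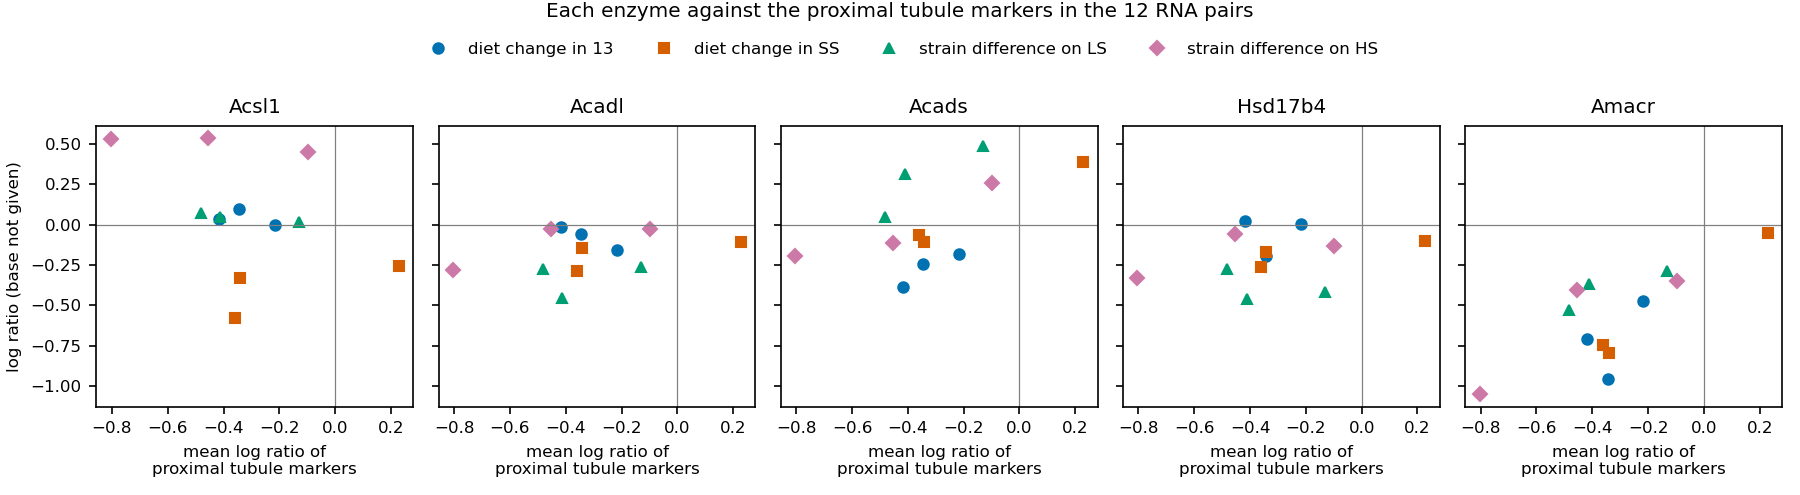
Log ratio of each enzyme (vertical axis) against the mean log ratio of 10 proximal tubule markers (horizontal axis) in the 12 RNA pairs, bases not given; symbols mark the comparison. The Pearson r over the 12 pairs is 0.75 for Amacr and -0.38 for Acsl1.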

How the data were processed

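Each array's file holds log ratios that the authors deposited; the sources used here do not state their base, background correction, spot filter or normalization. Array means lay within 0.0049 of 0. Gene symbols came from GEO's platform table and were brought up to date through RefSeq (assembly GRCr8). Of 1561 probes with a value, 1311 received a single current symbol, 5 kept the platform's, 22 had several genes and 223 had none. The SS diet group was set from the titles; closure, below, was only a later check.

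The forward and dye-swap arrays of a replicate were averaged, giving 12 RNA pairs. limma 3.58.1 in R 4.3.3 fitted 4 group means to all pairs (lmFit, eBayes), each tested against 0, two-sided, with Benjamini-Hochberg adjustment over all probes with at least 2 replicates, at a threshold of 0.05. The fit was tested on simulated, independent RNA pairs with changes placed in the SS diet comparison alone. That test does not address the averages, the difference between strains or RNA shared between arrays. The signs of the 4 comparisons were checked by closure: the difference of the diet ratios and that of the strain ratios correlated at 0.58 across 1164 probes, against -0.23 to 0.24 with 1 group or 1 of each kind turned. The number of arrays limits the precision. Deviations of same-numbered RNA pairs from their group means correlated at 0.18, 0.13 and 0.19 between the strain 13 and SS diet groups, which is weak. They correlated at -0.62, -0.48 and -0.26 between SS diet and strain on HS, the sign that SS RNA on HS shared by both would give; a block common to all groups cannot hold opposite signs. The other 4 pairs of groups had no such common sign above 0.1 in size, and the labels do not say what a number marks. Of the 12 RNA pairs, 4 had a best match in another group with their own number. The numbers were thus not shown to pair the groups, and the main fit does not use them.

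The enzymes and the gene lists were chosen with earlier results of these data known. From the lists, the text names in each comparison the 3 genes with the lowest p and those that passed; a gene with the highest correlation to an enzyme is named by rank (the first 3). Protein sequences were not used here.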

Additional observations from a re-analysis of the deposited data

Results flagged for a closer look

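The diet change of Acsl1 differed between the strains by the test of the difference itself (0.447, limma adjusted p = 0.0353). That value is the mean of 0.43 from the diet arrays (0.04 in strain 13 and -0.39 in SS) and 0.46 from the strain arrays (0.505 on HS and 0.04 on LS). The call was lost under 6 of 14 alternatives. SS RNA may be shared between both kinds of array, so the p may be too low. Of 20 sets of arrays examined for a single array apart from the rest, 5 enzymes in 4 comparisons, 0 had one. The rule set the gap to the nearest array against the whole range. It cannot find both arrays of a replicate standing apart together, as for Amacr on HS in replicate 1 (-0.89 and -1.21).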

How the results depend on the processing

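Across the alternatives, 376 of 430 values of single enzymes kept their direction and their side of the threshold, 39 lost a call, 10 gained one and 5 changed sign. The sign changes were in values near 0: Acads on HS between strains, at 0.17 on dye-swap arrays alone (-0.155 to 0.0725 when 1 replicate was left out), Acads in SS (-0.085 to 0.1625) and Hsd17b4 in strain 13 (-0.095 to 0.0125). A dye effect does not cancel on arrays of one orientation; otherwise the cause was not tested. The number of the 5 enzymes called was, with forward arrays alone, 1 for diet in strain 13, 1 for strain on HS, 2 for diet averaged over strains and 3 for strain averaged over diets (Hsd17b4 lost); with dye-swap arrays alone, 1 for strain on LS, 3 for strain averaged over diets (Acadl lost) and 1 in SS, where Amacr was called in place of Acsl1; with equal spread, 2 for strain on LS, 1 on HS and 0 for the difference between strains; with probes in all 12 RNA pairs, 2 for strain on LS (Acadl and Hsd17b4, adjusted p = 0.0473 for both) and 2 for diet averaged over strains. It was 1 for strain on HS without the array with conflicting labels or without the LS array with the fewest values, where the Amacr ratio kept its value of -0.60 (adjusted p = 0.0546 and 0.0511). Each comparison's own 3 values fitted alone, with fewer samples, called 0 in SS, on HS, for the difference and for both averages. The difference called 0 by diet arrays alone or strain arrays alone. Leaving out 1 replicate gave 0 to 2 in SS, 0 to 1 on HS, 0 to 1 for the difference, 0 to 1 for the averaged diet change, 0 to 2 for the averaged strain difference, and 0 for diet in strain 13 and strain on LS.

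With the replicate number as a block, 1 enzyme was called on HS, Acsl1, and Amacr was not (-0.60, adjusted p = 0.0925); the counts in the other comparisons did not move. Counts over all probes tested moved with these settings too. For strain on HS the count was 81 of 1350 (49 higher, 32 lower). It was 40 with the block (30 higher, 10 lower) and 13 with equal spread (10 higher, 3 lower). Forward arrays alone gave 127 of 1276, dye-swap arrays alone 411 of 1295, and leaving out 1 replicate 0 to 19. In SS it was 37 of 1310, with 118 of 1230 on forward and 62 of 1180 on dye-swap arrays alone. It was 58 of 1006 with probes in all RNA pairs and 60 of 1282 without the array with conflicting labels. With 1 replicate left out it was 0 to 57. In strain 13 it was 0 of 1287, and 15 of 1180 and 3 of 1214 with forward and dye-swap arrays alone. For strain on LS it was 0 of 1229, and 70 of 1061 and 51 of 1156 with those arrays. It was 23 of 1229 with equal spread and 35 of 1006 with probes in all RNA pairs. For the difference it was 5 of 1164 (3 higher, 2 lower), and 8 with the block. It was 4 with arrays centred on the median (3 higher, 1 lower) and 0 with equal spread. Forward arrays gave 13 of 998, dye-swap arrays 12 of 1041 and probes in all RNA pairs 39 of 1006. Without the array with conflicting labels it was 12 of 1154, and without the LS array with the fewest values 2 of 1161. With 1 replicate left out it was 0 to 10. For the averaged diet change it was 37 of 1249, and 199 of 1123 and 142 of 1114 with forward and dye-swap arrays. It was 54 of 1006 with probes in all RNA pairs and 0 to 152 with 1 replicate left out. For the averaged strain difference it was 181 of 1203, and 224 of 1036 and 375 of 1134 with forward and dye-swap arrays. It was 5 to 48 with 1 replicate left out. Own values alone called 0 in SS, on HS, for the difference and for the averaged diet change, and 3 for the averaged strain difference. The cause was not tested.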
